A study of Caenorhabditis elegans with 4 samples.

Results

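Across the X chromosome of wild-type Caenorhabditis elegans embryos, 433 stretches of 5000 bp or more lay between neighbouring DPY-28 peaks. They were taken from the authors' whole-series peak list by merging overlapping peaks on X (0 pairs overlapped), listing the intervals between neighbouring peaks and keeping those of at least 5000 bp. These 433 long stretches were 4.76% of the 9097 intervals between X peaks and 2.98 Mb of the 17.7 Mb between the first and the last peak, or 16.8% of X. The stretches were chosen by the positions of whole-series peaks, so values from that list describe them and test nothing.

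DPY-28 is a condensin subunit. Condensins are ring-shaped protein complexes that form loops in chromosomes, and DPY-28 takes part both in condensin I and in the condensin of the dosage compensation complex. That complex loads on X at recruitment sites, spreads along the chromosome and lowers transcription from both X chromosomes of hermaphrodites. Males, with a single X, do not assemble it there.

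DPY-28 was mapped by chromatin immunoprecipitation and sequencing (ChIP-seq) in 2 ChIP samples and 2 input samples, all from strain N2 at 20 °C, as mixed-stage embryos of a population of both sexes. Live embryos had been fixed in 2% formaldehyde for 30 min, and immunoprecipitation used a polyclonal rabbit antibody against DPY-28, purified by affinity. The values therefore average over stages, cell types and sexes, in shares that are not given. Separate cultures are not named for the replicates, so their spread may be technical. The lists compared held 9098 X peaks of the whole-series list, 1889 of ChIP replicate 1 and 4743 of ChIP replicate 2. Read depth is unknown, no input peak list was analysed here, and the coordinates are those of WormBase WS220. Whether fewer cells with DPY-28 at a place or less DPY-28 per cell keeps a stretch below the peak threshold cannot be told apart in bulk chromatin.

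The long stretches were the tail of a continuous distribution. Intervals between X peaks ran from 43 to 17870 bp, with a median of 1018 bp and quartiles of 450 and 2058 bp. The long stretches had a median of 6202 bp (quartiles 5502 and 7522 bp) and a mean of 6889 ± 2015 bp (SD over 433 stretches). Of them, 322 were shorter than 7500 bp, 77 measured 7500 to under 10000 bp and 34 reached 10000 bp. At the threshold, the shortest were X:8456075-8461083 (5009 bp), X:383674-388689 (5016 bp) and X:6996772-7001788 (5017 bp). The longest intervals that missed it were X:15348017-15353014 and X:15861155-15866152, both 4998 bp, and X:7892667-7897657 (4991 bp). Nothing sets the 5000 bp limit apart in the distribution, and intervals on either side of it differed by few bases.

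**Figure D1:**
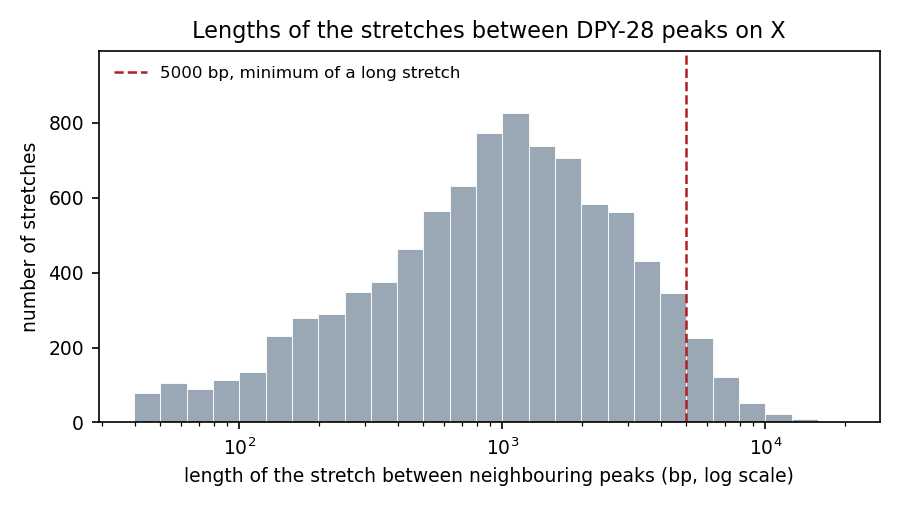
Number of stretches between neighbouring whole-series peaks on X (vertical axis) by their length in bp (horizontal axis, log scale), in bins of equal width on the log scale. The bars have a single maximum near the median of 1018 bp and fall without a break through the dashed line at 5000 bp, beyond which lie the 433 long stretches.

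The longest stretch, X:199223-217092, measured 17870 bp and was touched by no peak of any list. It lay inside an interval of 30314 bp without peaks in replicate 2 and one of 48272 bp in replicate 1. The second, X:170066-186964 (16899 bp), lay in the same peak-free interval of replicate 1 and in one of 35017 bp in replicate 2, and was likewise touched by no replicate peak. Both thus stood within wider intervals in which each ChIP sample by itself had no peak.

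The third longest, X:14244776-14260984, measured 16209 bp, and a replicate 2 peak covered 102 bp at its edge. X:8971830-8986301 (14472 bp), near the middle of X, had 58 bp covered by replicate 2, and X:258776-273003 (14228 bp) had 73 bp. In X:5956545-5970675 (14131 bp) a replicate 2 peak of 249 bp lay wholly inside, with a score of 51.07, close to that list's lowest score of 50.05. Among the 10 longest stretches it was the only one with a whole replicate peak inside.

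X:15811610-15825409 (13800 bp) had 549 bp covered by a replicate 2 peak that reached in from an edge. The other 3 were X:6522984-6536763 (13780 bp), X:3293259-3307001 (13743 bp) and X:621900-635111 (13212 bp), with 39, 77 and 72 bp covered by replicate 2. Replicate 1 peaks touched 0 of the 10. Together these 10 stretches held 148 kb, 4.97% of the length of all 433.

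Long stretches occurred along the whole of X. The left arm held 135 (31.2%, exact 95% interval 26.8 to 35.8%), the centre, the middle one of 3 equal parts, held 151 (34.9%, 30.4 to 39.6%) and the right arm 147 (33.9%, 29.5 to 38.6%). These intervals cover counting error only. The density of long stretches was 22.9, 25.6 and 24.9 per Mb, and the share of each part that lay in long stretches was 15.9%, 17.5% and 17.1%. Arms and centre thus held close to the share their length gives.

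At a finer scale the left end of X stood apart by its values. The first Mb held 41 long stretches, which made up 32.3% of its bases. Each of the other 17 segments of 1 Mb (the last one shorter) held 13 to 30, with a median of 22, making up 8.83 to 21.7% of their bases. The lowest count, 13, was in the third Mb. In the first Mb the whole-series list had 399 peaks, against 468 to 557 peaks per Mb in the other segments. Replicate 1 had 74 peaks there against 85 to 128 per Mb elsewhere, and replicate 2 had 178 against 231 to 306. Each ChIP sample by itself therefore had its lowest density in the first Mb, as had the whole-series list whose gaps chose the stretches.

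Within the first Mb the stretches were concentrated in the first 300 kb, a segment chosen after the values were seen. It held 18 long stretches with a summed length of 166 kb, or 55.3% of its bases, against 16.2% for the rest of X. Their median length was 7708 bp, 7 of them reached 10000 bp, and 3 of the 10 longest stretches of X were among them. Replicate 2 had 23 peaks in this segment, or 76.7 per Mb, and replicate 1 had 25, or 83.3 per Mb. Beside the medians of the other segments, 281 per Mb in replicate 2 and 107 per Mb in replicate 1, the density was lower by a larger factor in replicate 2. At the right end, the last 300 kb held 7 long stretches with 51.2 kb, where replicate 2 reached 263 and replicate 1 reached 117 peaks per Mb.

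Peaks at the left end were not all weak. The whole-series peaks of the first 300 kb had a median score of 5.27, against 6.91 over all of X, and a highest score of 62.8. In replicate 2 the median there was 105.78 (all X 169) and the highest score 3100. In replicate 1 the median was 87.15 (all X 106) and the highest 913.59. How well reads can be placed at this chromosome end was not tested.

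**Figure D2:**
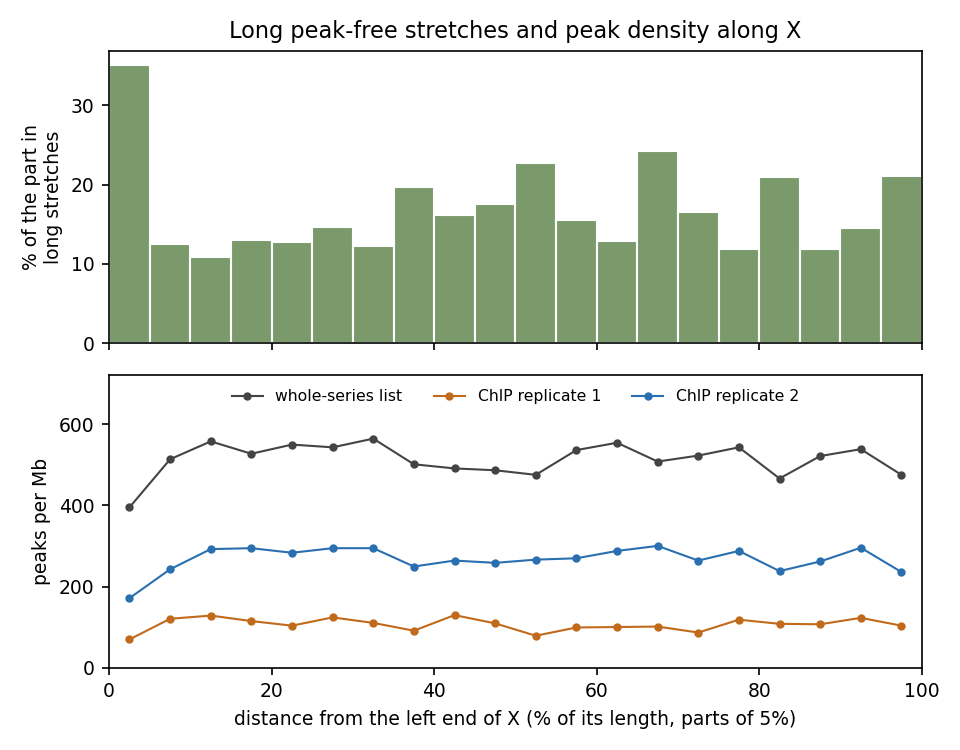
Upper panel: percent of the bases in each 5% of X that lay in the 433 long stretches. Lower panel: peaks per Mb in the same parts for the whole-series list and both ChIP replicates (points, joined by lines); the part at the left end has 35.1% of its bases in long stretches and the lowest density in each of the lists.

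Some long stretches had another one close by. With at most 2000 bp between them, 119 of the 433 (27.5%, exact 95% interval 23.3 to 31.9%) formed 52 runs: 39 runs of 2 stretches, 12 of 3 and 1 of 5. The median run spanned 15.9 kb, and in 29 of the runs a single peak stood between each stretch and the next. Over all stretches, 43 peaks had a long stretch on both sides, among 823 distinct flanking peaks. The run share and these 43 peaks have no counterpart over other X intervals here. Whether long stretches lie closer together than other intervals was not tested, and the exact interval covers counting error only.

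The run with the longest span, X:6341752-6378009, covered 36258 bp and held 5 long stretches, which made up 90.9% of it, and 6 whole-series peaks. Those peaks scored from 4.16 to 66.78. One replicate 1 peak (score 57.55) and 5 replicate 2 peaks, the highest at 1782.02, touched the run. The replicate 1 peak lay inside the stretch X:6355331-6361984, and 3 of the 5 replicate 2 peaks lay wholly within the run. The second run, X:151943-186964 (35022 bp), was 98.5% long stretch, with 2 whole-series peaks of 4.84 and 22.39. It was touched by 3 replicate 1 peaks and 1 replicate 2 peak. The third, X:12304454-12333953 (29500 bp), held 3 long stretches and 4 whole-series peaks of 3.96 to 21.09, with 1 peak of replicate 1 (219.01) and 2 of replicate 2 (highest 208.79).

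The peaks that border the long stretches had the same median score as X peaks in general. This median in the whole-series list was 6.91 over 866 flanks (interval of the median 6.4 to 7.39), and the median of all 9098 X peaks was also 6.91. Quartiles were 4.14 and 14.8 for the flanks and 4.24 and 13.9 for all X peaks. Flanking peaks had a median width of 278 bp, against 298 bp for all X peaks. For intervals of under 500 bp the median flank score was 7.21, and for 500 to under 1000 bp, 1000 to under 2000 bp and 2000 to under 5000 bp it was 6.88, 6.64 and 6.91. An interval's length thus said little about the median score of the peaks beside it. The share of flanks among the highest scoring 10% of X peaks (score 34.6 or more) was 10.9% in the shortest class. It was 8.99%, 8.53% and 11.1% in the next classes and 12.5% at the long stretches. Across the 433 long stretches, which share flanking peaks and a single list, the Spearman correlation of length with the higher flank score was 0.04.

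Scores on the left and the right side of a stretch had a Spearman correlation of -0.02 across the same 433 stretches. Both flanks scored below the X median in 106 stretches (24.5%, against 26.9% of all X intervals), both at or above it in 109, and 218 had one flank on each side. The higher flank had a median score of 12.41 and the lower one 4.52. In 57 stretches the higher score was at least 10 times the lower. A flank among the highest scoring 10% of X peaks (score 34.6 or more) was present at 101 stretches, or 23.3%, against 18.6% of all X intervals. Such a peak stood on both sides of 7 stretches. The counts of 109, 218, 57 and 7 have no counterpart over all X intervals here, so they do not set the long stretches apart.

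**Figure D3:**
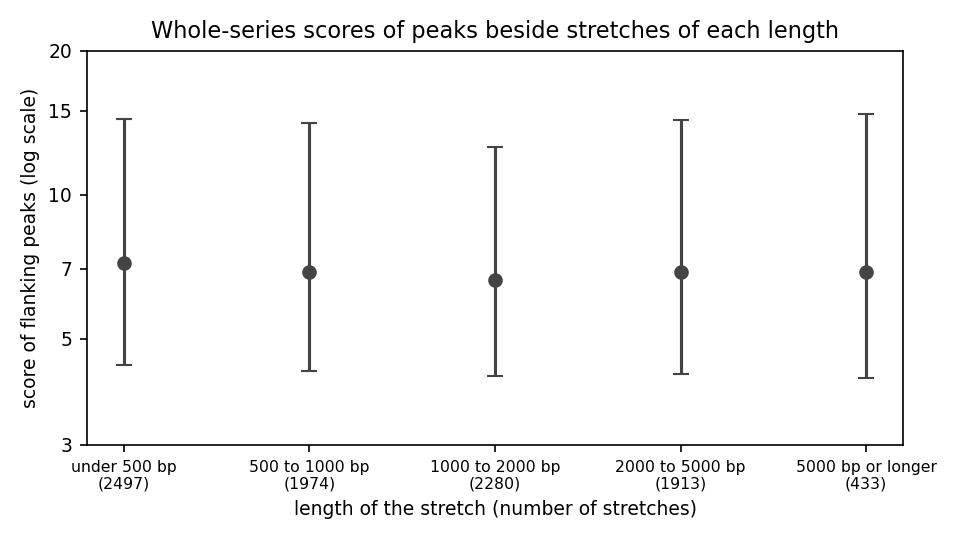
Whole-series score of the peaks that flank an interval (vertical axis, log scale) for 5 classes of interval length on X, with the number of intervals in brackets. Points are medians and bars run from the first to the third quartile; the medians lie between 6.64 and 7.21 in all classes, with the long stretches at 6.91.

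Among the stretches with the strongest flanks, X:2990242-2995591 (5350 bp) ended at the highest scoring X peak of the whole-series list, X:2995592-2997864, with a score of 261. Its other flank scored 88.64. X:1881115-1888286 (7172 bp) lay between peaks of 135.28 and 225.55. Replicate 1 touched neither of these stretches, and 2 replicate 2 peaks reached in at the edges of each, covering 237 and 222 bp. Each stretch begins beside a whole-series peak by the rule, and these were named because that peak scored high. They show only that some stretches begin directly beside strong peaks.

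X:4395847-4402498 (6652 bp) lay between flanks of 208.94 and 6.44. X:15742144-15747488 (5345 bp) had flanks of 161.45 and 18.71, and X:11522427-11533661 (11235 bp) had 161.34 and 3.55. At the other extreme, X:13027661-13032690 (5030 bp) was bordered by peaks of 2.15 and 1.37, close to the lowest score of 1.30 in the list. X:12262527-12267627 (5101 bp) had flanks of 1.47 and 2.15. The next were X:12295140-12300372 (2.65 and 2.10), X:6983413-6989606 (1.41 and 2.78) and X:3260727-3267509 (1.98 and 2.86). Of these 5 with the weakest flanks, replicate 1 peaks touched none and a replicate 2 peak covered 76 bp of the last.

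The flanks were also looked up in the replicate lists. A replicate 1 peak overlapped 149 of the 823 distinct flanking peaks, or 18.1% (exact 95% interval 15.5 to 20.9%), and 18.9% of all X peaks (18.1 to 19.7%). Replicate 2 overlapped 440, or 53.5% (49.99 to 56.9%), against 59.7% of all X peaks (58.7 to 60.7%). In replicate 2 the share was thus lower at the flanks. The intervals cover counting error only, and the flanks are part of all X peaks. Flanks were also narrower by median (278 against 298 bp) and have a peak-free side by the rule. The difference was not tested. The replicate 2 peaks at flanks had a median score of 183, and its X peaks one of 169. In replicate 1 these medians were 111 and 106.

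Whether the ChIP samples by themselves had peaks within the long stretches was examined with each replicate list. Of the X peaks of each list, 0.90% in replicate 1 and 0.23% in replicate 2 lay wholly inside long stretches. The whole-series list may come from the same reads. Its gaps and the replicate peaks may therefore not be independent, and no test was made. Replicate 1 had 17 peaks wholly inside 15 long stretches, or 3.46% of the 433 (exact 95% interval 1.95 to 5.65%). The same held for 0.539% of all X intervals and for 1.1% of those of 2000 to under 5000 bp, which give a peak less room. Replicate 2 had 11 peaks wholly inside 11 long stretches, or 2.54% (1.27 to 4.50%), against 0.44% of all X intervals and 1.05% of those of 2000 to under 5000 bp. The mean over both samples was 3.0% ± 0.65 (SD, n = 2). Per Mb, replicate 1 had 5.70 peaks wholly inside long stretches (exact Poisson 95% interval 3.32 to 9.12). Inside intervals of 2000 to under 5000 bp it had 4.05 per Mb (2.60 to 6.03). For replicate 2 these densities were 3.69 (1.84 to 6.60) and 3.38 (2.06 to 5.21). Long stretches thus differed less from the shorter intervals per Mb than per interval. Both samples had a peak inside in 0 stretches, so 26 different stretches, 6.0% of the 433, held a peak of one sample. The same counts were not made over all X intervals. With only 15 and 11 stretches concerned, the 0 does not show that the samples disagree. The name "without peaks" therefore holds for the whole-series list and not in full for each sample.

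Peaks inside the long stretches scored low within their own lists. In replicate 1, 16 of the 17 scored below that list's X median of 106, with a median of 64.32 and a range of 50.89 to 225.26. The exception was X:16851969-16852212, 244 bp wide, which scored 225.26 and lay 1863 bp from the nearer edge of X:16848946-16854075. Next came X:5102233-5103111 (score 104.39), which shared the stretch X:5100135-5106460 with a second replicate 1 peak of 79.88. The widest was X:14121014-14122199, with 1186 bp and a score of 97.16, near the middle of the 9975 bp of X:14115875-14125849. The remaining named cases were X:17120279-17120711 (95.82) in X:17118494-17125115 and X:169179-169684 (84.23) in X:163722-169913.

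In replicate 2 all 11 peaks inside scored below its X median of 169, between 51.07 and 81.85 with a median of 59.55. The highest were X:5188039-5188427 (81.85) in X:5183744-5191640 and X:6630324-6630740 (74.25) in X:6625784-6635119. They were followed by X:6005214-6005720 (71.68) in X:6004641-6009746, X:1464264-1464696 (66.28) in X:1460559-1466555 and X:7613239-7613904 (60.94) in X:7608862-7614802. Most peaks inside the stretches were thus calls from the lower part of each sample's list. Inside autosomal stretches chosen by the same rule, replicate peaks had median scores of 75.18 in replicate 1 and 64.0 in replicate 2. Median scores of all autosomal replicate peaks are not given here. Whether low scores inside stretches are particular to X was therefore not tested. Scores of replicate peaks inside shorter X intervals were not compared.

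The same rule applied to the 5 autosomes gave 1190 stretches of at least 5000 bp, 81.4 Mb in all, with a median of 49.0 kb. Replicate 1 had 7.57 peaks per Mb inside these (exact Poisson 95% interval 6.98 to 8.19), and 5.70 per Mb inside the long stretches of X (3.32 to 9.12). For replicate 1 the X value lay within the range of single autosomes, from 5.45 on III to 9.53 on IV. Replicate 2 had 0.39 peaks per Mb in the autosomal stretches (0.27 to 0.56) and 3.69 per Mb in those of X (1.84 to 6.60), above each autosome, of which the highest was I with 0.61. The intervals cover counting error only and the difference was not tested. X and autosomal stretches also differ in length and in how densely their surroundings were called.

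**Figure D4:**
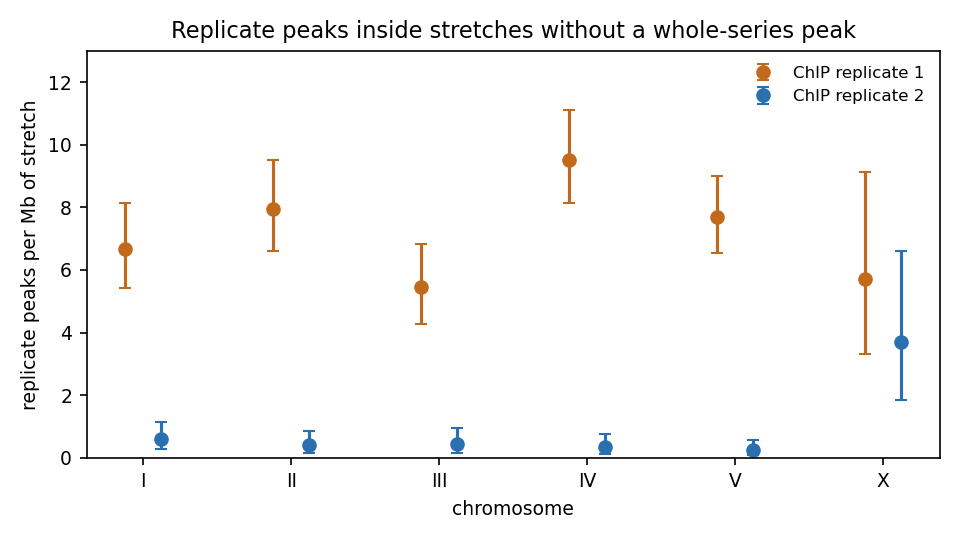
Replicate peaks lying wholly inside stretches of 5000 bp or more without a whole-series peak, per Mb of such stretch (vertical axis), on each chromosome (horizontal axis). Points are the densities of ChIP replicates 1 and 2 and bars their exact Poisson 95% intervals; replicate 1 is between 5.45 and 9.53 on every chromosome, and replicate 2 is at 3.69 on X and at most 0.61 on an autosome.

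Far more stretches were touched at their edges. Counting any overlap of 1 bp, replicate 2 peaks touched 307 of the 433 long stretches (70.9%). That was the case for 72.6% of all X intervals and 70.6% of those of 2000 to under 5000 bp. Replicate 1 peaks touched 60 (13.9%), against 10.3% of all X intervals and 11.3% of those of 2000 to under 5000 bp. The 388 entries of replicate 2 peaks from an edge reached in by a median of 83 bp (quartiles 49.8 and 126 bp, longest 881 bp), and the 50 of replicate 1 by 48.5 bp (longest 540 bp). Replicate 2 peaks on X were wider, with a median of 588 bp against 384 bp in replicate 1 and 298 bp in the whole-series list. No replicate peak spanned a whole stretch.

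As a result 115 stretches (26.6%, exact 95% interval 22.5 to 31.0%) were touched by no replicate peak, against 25.6% of all X intervals. With replicate 1 alone this number was 373, and with replicate 2 alone 126. The 115 had a median length of 6337 bp and summed to 805 kb. Replicate peaks covered little of the 433 stretches: 0.32% of their bases in replicate 1 and 1.50% in replicate 2, against 4.66% and 19.3% of X. After removal of every base under a replicate peak, 402 of the 433 (92.8%) still had an unbroken part of at least 5000 bp, and the median of the longest such part was 6037 bp.

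Around the stretches, peak coverage was highest next to the edge, and averaged over the distances below it was under the chromosome's level from 500 bp outward. In the 500 bp outside an edge, where the flanking peak lies by definition, whole-series peaks covered 63.7% of bases, replicate 2 46.2% and replicate 1 12.2%. From 500 to 2500 bp outside, replicate 2 covered 14.9% and replicate 1 3.45%, against 19.3% and 4.66% over all of X. The first 250 bp of that range were above these levels, at 24.1% in replicate 2 and 6.11% in replicate 1. From 5000 to 10000 bp outside, replicate 2 covered 16.8% and replicate 1 3.94%. Coverage around shorter X intervals is not given here, so these values do not set the long stretches apart. Inside, replicate 2 covered 16.8% of the first 250 bp, 1.28% of the next 250 bp and 0.17% from 1000 to 2500 bp. Replicate 1 covered 1.26%, 0.25% and 0.23% of the same parts. In both samples coverage was thus low beyond the first 250 bp inside the edges set by the whole-series list.

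**Figure D5:**
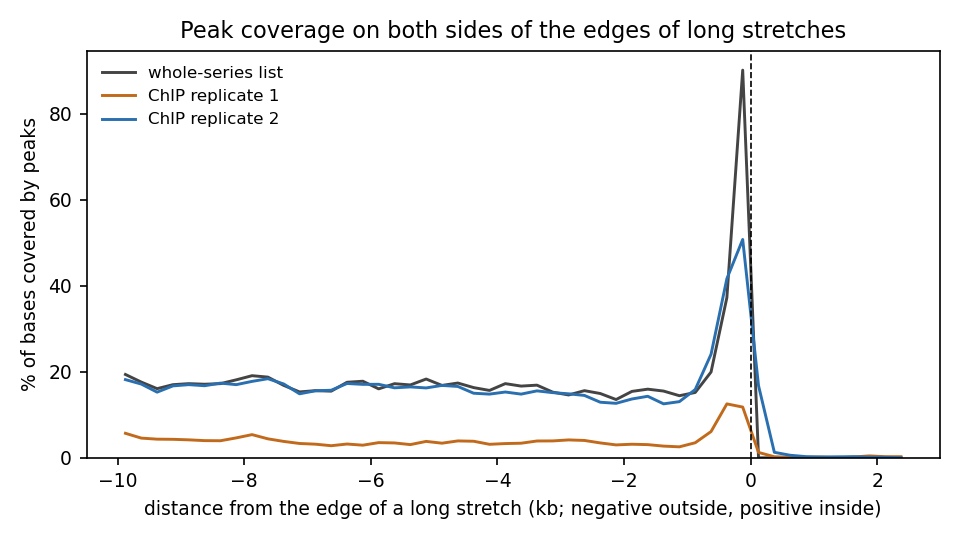
Percent of bases covered by peaks of each list (vertical axis) by distance in kb from the edges of the 433 long stretches (horizontal axis; negative values outside, positive values inside), in bins of 250 bp with both edges combined. Whole-series coverage inside is 0 by definition, and replicate 2 falls from 46.2% in the 500 bp outside to 1.28% at 250 to 500 bp inside.

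The replicate lists' own peak-free intervals around the long stretches were wider by their medians, though shorter than the stretch at some of them. Around the midpoints of the long stretches, the interval between neighbouring replicate 2 peaks had a median of 9.52 kb, and it was at least 5000 bp at 419 of the 433. In replicate 1 the median was 23.5 kb and 429 reached 5000 bp. On all of X, intervals of that length numbered 898 in replicate 2, or 44.8% of X, and 959 in replicate 1, or 85.9% of X. Both replicate lists, with fewer X peaks, thus had more such intervals than the 433 of the whole-series list.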

How the data were processed

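Data were ChIP-seq peak lists: 1 for the whole series and 1 for each of 2 ChIP samples. The aligner was BWA and the genome ce10, per the submitters' processing notes. Coordinates are WormBase WS220 and the callers MACS v2 (whole series) and MACS (replicates), per the file headers. Each peak's score is the caller's value as the authors deposited it, on a scale the files do not name, so scores were compared only within a list. Not given in the sources used here are caller thresholds, read numbers and how input and replicates entered the whole-series calls.

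Overlapping X peaks were merged and intervals of 5000 bp or more between them kept. A replicate peak counted as inside when the stretch contained all of it, and as touching from 1 bp of overlap. Shares have exact (Clopper-Pearson) and densities exact Poisson 95% intervals, for counting error only; the interval of a median comes from order statistics. No test was made, because the rule used these peaks and 2 samples of 1 group allow none. The stretches, and the rules behind all results, were chosen with earlier results of these data known.

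Stretches named in the text are the 10 longest, the 5 with the strongest and the 5 with the weakest flanks by the higher flank score, the 5 per replicate with the highest scoring peak inside, the 3 nearest the threshold on each side and the 3 longest runs. Genes, GC content and sequences of the stretches were not analysed here, since no genome of that build was used. The listing of stretches and the counts of those holding or touched by a peak were tested on simulated data. All came back in 20 of 20 lists. No simulated interval lay close to the 5000 bp limit, and flank scores, runs and coverage were not part of that test. Python 3.11.15, numpy 2.4.6, scipy 1.17.1 and matplotlib 3.10.9 were used.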

Additional observations from a re-analysis of the deposited data

How the results depend on the processing

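Number and extent of the stretches depended on the limit and on which peaks count. With a minimum of 4000, 7500 and 10000 bp there were 772, 111 and 34 stretches, making up 25.4%, 6.02% and 2.34% of X. With the upper 50% of X peaks by score there were 1008, making up 52.0%. With the peaks of all 3 lists there were 402, or 15.5% of X; without replicate 1 or without replicate 2 in that set the share was 15.9 to 16.4%. Merging peaks closer than 500 bp left 433, which was fixed in advance, since it removes only intervals under 500 bp. Counting the chromosome ends also left 433. No interval precedes the first X peak, which starts at base 1, and the right end was taken at the last peak of the 3 lists. With any overlap of 1 bp, 13.9% of stretches held a replicate 1 peak and 70.9% a replicate 2 peak. With only the upper 50% of each list by score, 0.23% and 0% held a whole peak inside. For 0 of 433, the rule of 3 counts of the total allows a share of up to 0.693%, a 1-sided bound. The upper end of the exact 2-sided 95% interval is 0.848%. The number without a replicate peak was 407 when the whole peak and 397 when its midpoint had to lie inside, and 126 to 373 without either replicate. The median flank score was 8.06 for stretches of 10000 bp or more, and as score per kb of width, another scale, it was 26.1, against 24.9 for all X peaks. With the middle 50% of X as centre, 47.3% of stretches lay in the arms, which are then also shorter. Runs held 20.6% of stretches at a distance of at most 1000 bp and 38.3% at 5000 bp. Replicate 1 had 2.41 peaks per Mb inside stretches of 10000 bp or more, which is a single peak; that alternative, the use of midpoints for densities, the length of the left end segment and the lists with 1 replicate added were chosen after seeing the data. The left end had 56.2% and 43.0% of its bases in long stretches over the first 200 and 500 kb. GC content was not run. No paired analysis was possible because input samples, which share the replicate numbers, have no list among those used, and no result comes from a test. Depth is unknown, so a stretch without a peak says only that no call was made there.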

Other observations

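The stretch of X with the fewest interruptions by long stretches was X:2250693-2640350, 390 kb without any interval of 5000 bp or more between whole-series peaks. It held 224 whole-series peaks (575 per Mb), 124 of replicate 2 (318 per Mb) and 42 of replicate 1 (108 per Mb). It was singled out after its values were seen, as were the intervals that follow.

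The longest interval of X without a replicate 1 peak was X:601878-692696, 90.8 kb long. It held 5 long stretches (38.2 kb), 34 whole-series peaks with a highest score of 32.79, and 15 replicate 2 peaks, counting those wholly inside. The second longest, X:66090-144314 (78.2 kb), lay at the left end and wholly contained 4 long stretches and 5 replicate 2 peaks. In replicate 2 the longest such interval was X:65620-104584, 38.965 kb long, with 2 long stretches, 7 whole-series peaks of at most 9.93, and 0 replicate 1 peaks wholly inside. It overlapped the second longest one of replicate 1, given above.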
